A study of Mus musculus with 191 samples.

Results

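The livers of control mice were compared between the 8-hour and 0-hour time points, counted from the end of the last session in the inhalation chambers. Every control liver array of these time points was taken, 8 from mice killed at 8 hours and 7 from mice killed at 0 hours, which made 15 of the 191 arrays of the series. The mice were C57BL/6J males, an inbred strain, of 10 to 12 weeks. Before each session of 16 hours they were injected with saline and pyrazole (1 mmol/kg), an inhibitor of alcohol dehydrogenase, and they then breathed air in the chambers. Sessions were followed by 8 hours of air and ran for 4 days in each of 4 cycles, with a week between cycles. Treated mice, used here only for a side-by-side view, received ethanol with the pyrazole and breathed ethanol vapor. All groups therefore share the pyrazole, and mice without it were not analysed here. Each array held RNA of 1 mouse, from the lower lobes of the liver, and several cell types contribute to such RNA. A lower signal can therefore come from fewer cells of a type or from less RNA per cell, which these arrays cannot tell apart. The 8-hour mice were killed 8 hours later than the 0-hour mice. The clock time, the light cycle and the feeding state are not given in the sources used here, so hour of day, feeding, time since pyrazole and time since the chamber cannot be told apart. Samples were hybridized in a counter-balanced format, 8 arrays to a chip, but the labels and columns do not say which chip held which mouse, so no value within a chip can be given.

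Hepatocytes make most of the proteins of the blood plasma. These proteins fold in the endoplasmic reticulum (ER), where chaperones and disulfide isomerases assist them, and the genes of these helpers are induced together when unfolded protein accumulates (the unfolded protein response). The liver also runs a molecular clock, in which CLOCK and BMAL1 activate the Per, Cry and Nr1d genes and the clock-controlled factor Dbp, and the products of these genes feed back on the loop. Light sets the clock of the brain, while feeding can set that of the liver, and many hepatic genes of glucose, lipid and bile acid metabolism follow the hour of day or the last meal.

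Signals are given on a log2 scale after quantile normalization, so a difference of 1 is 1 step of base 2. A probe was tested if more than 80% of the 47 liver arrays detected it, by a detection p (set against negative-control beads) of at most 0.05. Between 11297 and 12431 probes were detected on the 0-hour arrays and between 11359 and 12089 on the 8-hour arrays. The median deposited intensity was 97.3 to 104.1 at 0 hours and 101.8 to 110.4 at 8 hours. At 8 hours mice 44, 10, 12 and 28 had 109.0 to 110.4, and mice 36, 52, 60 and 68 had 101.8 to 103.3. Normalization levels the arrays as a whole, and a processing difference at single probes was not tested. Each array correlated across probes with the mean of the rest of its group at 0.988 to 0.997 at 0 hours and at 0.991 to 0.997 at 8 hours. Between 2 of the 15 arrays the lowest correlation was 0.975, and no pair was identical. Mouse 50 of the 0-hour group was the extreme array on the first principal component, which held 26.5% of the variance. Without this mouse 1119 probes passed. For single values, the number of arrays limits the precision.

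At 8 hours, 557 of 10530 probes were higher than at 0 hours (5.29%) and 720 were lower (6.84%) by limma, at an adjusted p of 0.05 or lower. Together, 1277 probes passed (12.1%), from 1048 named genes, of which 468 were higher and 580 lower. Most changes were small, with a median size of 0.22 among the probes that passed. Only 4 of the probes that passed were higher by more than 1 and 12 lower by more than 1. The groups did not overlap at 290 probes (2.75%), of which 289 passed. With all 6 liver groups in 1 fit, which pools the spread over treated and 120-hour mice, 575 probes passed (272 higher and 303 lower). Of the 74 genes named below that passed, 35 did not pass in that fit.

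Among probes whose groups did not overlap, the largest falls included genes of protein folding in the ER, of redox defense and of bile acid synthesis. The largest rises among these probes were smaller, and included genes of glycogen, sterol and histone biology. Hamp and Dbp, which fell far, and Angptl8, G0s2 and Car3, which rose by more than 1, had overlapping groups and are described further on. The last of the 4 probes that rose by more than 1 was that of Cyp2b9, a cytochrome P450 (1.03). It is not counted among the named genes. In the plot of the 10 largest falls and the 10 largest rises among probes without overlap, Creld2, an ER protein of the unfolded protein response, led the falls. Its signal was 9.77–11.09 (median 10.50) at 0 hours and 7.86–8.10 (median 8.05) at 8 hours, and it fell by 2.33 ± 0.15 on the log2 scale (SE, adjusted p = 2.71e-07), which is 5.02-fold. Every 8-hour mouse was below every 0-hour mouse, and the 8-hour mice lay close together. Srxn1, which encodes sulfiredoxin, the enzyme that repairs oxidized peroxiredoxins, fell by 1.5 ± 0.11 (adjusted p = 8.22e-07) from 9.17–9.92 (median 9.41) to 7.79–8.20 (median 8.09). Its brightest probe fell by 1.78. Cyp8b1, the sterol 12-alpha-hydroxylase that decides how much cholic acid is made, fell by 1.27 ± 0.21 (adjusted p = 0.0012) from 11.54–12.64 (median 11.73) to 9.82–11.51 (median 10.57). The lowest 0-hour mouse and the highest 8-hour mouse nearly met, and the spread was wide in both groups. Cbr3, a carbonyl reductase, fell by 1.08 ± 0.15 (adjusted p = 0.000349). Atf5, a stress-induced transcription factor, fell by 0.68 ± 0.10 (adjusted p = 0.000346).

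**Figure D1:**
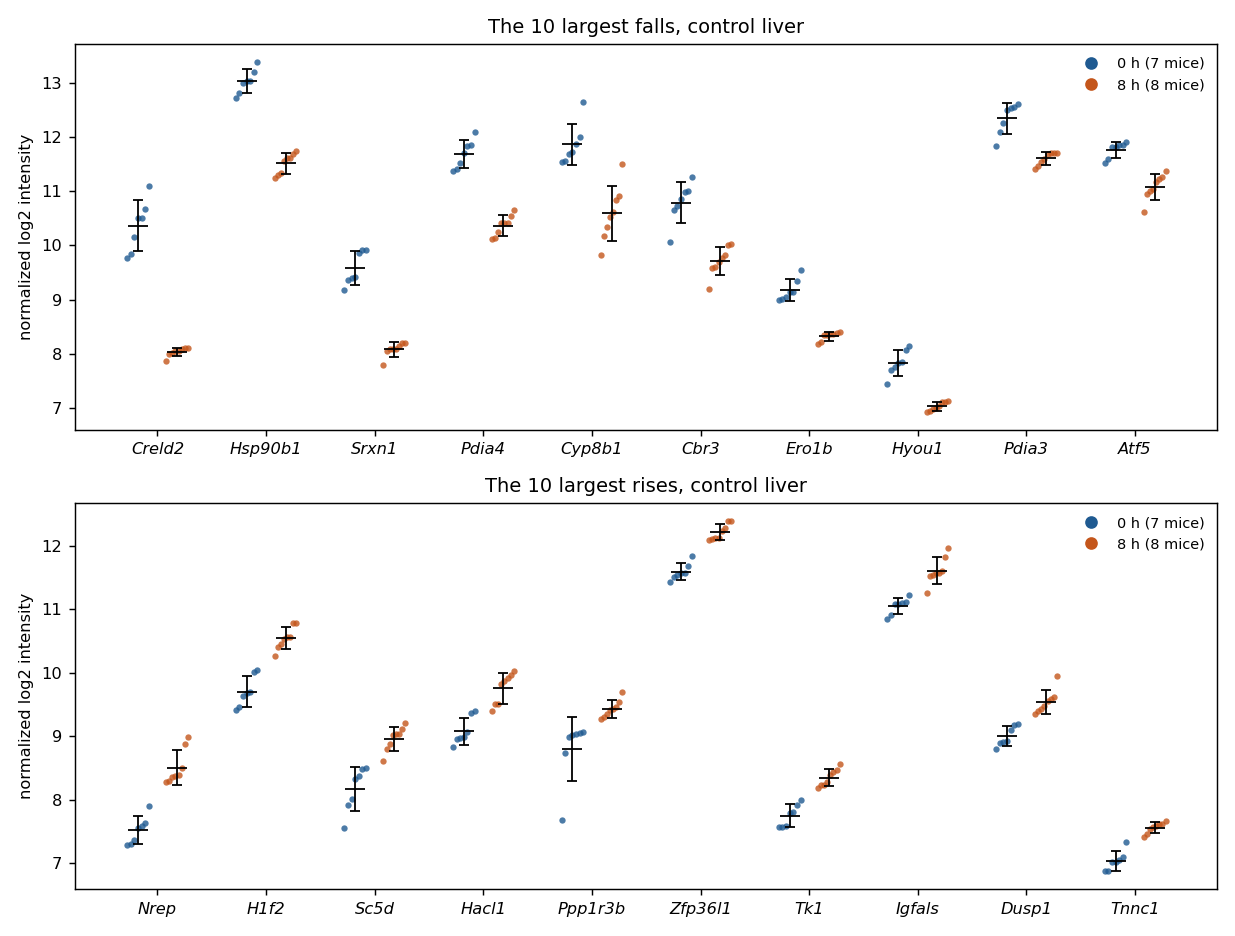
Normalized log2 intensity (y axis) of each mouse for the 10 genes with the largest fall (top) and the 10 with the largest rise (bottom) among probes that passed and whose groups do not overlap, at 0 hours (blue, 7 mice) and 8 hours (orange, 8 mice). Horizontal marks are means and bars are SD. Creld2 fell by 2.33 and Nrep, the largest rise, gained 0.98.

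Among the rises, Nrep, a small neuronal regeneration related protein, went from 7.29–7.91 (median 7.57) to 8.28–9.0 (median 8.38), a gain of 0.98 ± 0.12 (adjusted p = 9.05e-05). H1f2, a linker histone, gained 0.84 ± 0.10 (adjusted p = 8.02e-05), from 9.42–10.04 (median 9.68) to 10.27–10.79 (median 10.55). Sc5d, a late enzyme of cholesterol synthesis, gained 0.80 ± 0.13 (adjusted p = 0.000993). The groups did not overlap for these genes, and the 8-hour mice were the high ones. Hacl1, which splits 2-hydroxy fatty acids in the alpha-oxidation pathway of peroxisomes, gained 0.67 ± 0.11 and Zfp36l1, which binds AU-rich messenger RNAs and speeds their decay, gained 0.62 ± 0.064 (adjusted p = 2.21e-05). Tk1, the thymidine kinase of DNA precursor synthesis, gained 0.60 ± 0.075, and Tnnc1, troponin C of slow and cardiac muscle, gained 0.52 ± 0.061. Tk1 and Tnnc1 were dim, with 0-hour medians of 7.79 and 7.02. No background was subtracted before the fit, so the change of a dim probe is compressed. With background correction Tnnc1 gained 1.09, against 0.32 in the processed values.

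Genes of ER protein folding were lower at 8 hours almost as a group. Of 20 listed ER chaperone and quality-control genes 15 were measured, and 13 of them were lower and none higher, with a median difference of -0.56. Over all 7372 genes, taken at their brightest probe, 7.2% were lower and 5.86% higher, with a median of 0.00076. The groups did not overlap for 8 of the 15, against 221 of all 7372 genes. Hsp90b1 (GRP94), the HSP90 chaperone of the ER, went from 12.72–13.39 (median 13.03) to 11.25–11.75 (median 11.59), and it fell by 1.51 ± 0.10 (adjusted p = 2.71e-07). It was among the brightest probes of the list. Pdia4, a disulfide isomerase, fell by 1.32 ± 0.11 (adjusted p = 2.51e-06) from 11.38–12.10 (median 11.71) to 10.11–10.65 (median 10.41). Pdia3, the isomerase that works with calnexin and calreticulin on glycoproteins, fell by 0.74 ± 0.10. Calr (calreticulin), a calcium-binding lectin chaperone, fell by 1.19 ± 0.15 (adjusted p = 0.00015) from 10.18–11.22 (median 10.91) to 9.24–10.25 (median 9.59), and 1 mouse of the 8-hour group reached the range of the 0-hour group.

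The remaining members were mostly dimmer or changed less. Hspa5 (BiP), the HSP70 of the ER and its central stress sensor, fell by 0.60 ± 0.12 (adjusted p = 0.00502), from 7.25–8.10 (median 7.38) to 6.80–7.17 (median 6.91). Hyou1, its nucleotide exchange factor, fell by 0.80 ± 0.081 (adjusted p = 2.21e-05). Both probes were dim. With background correction the differences were -1.25 for Hspa5 and -1.52 for Hyou1. The deposited processed values gave -0.37 and -0.52. Sel1l and Syvn1, partners in the ubiquitin ligase that clears misfolded ER proteins, fell by 0.56 ± 0.072 and 0.20 ± 0.038. Of 3 Sel1l probes 2 passed, and the differences ran from -0.56 to -0.12. Herpud1, a further component of that pathway, fell by 0.52 ± 0.12, Dnajc3 (p58IPK), a co-chaperone, by 0.48 ± 0.10, Dnajb9 (ERdj4) by 0.31 ± 0.075 and Pdia6 by 0.21 ± 0.064. Pdia6 passed at 0.0413 and no longer passed when any 1 of 11 arrays was left out, with adjusted p up to 0.0803. Xbp1, the transcription factor of the response, differed by -0.077 (adjusted p = 0.408), and Edem1, a mannosidase-like protein of ER clearance, by -0.041 (adjusted p = 0.688). Outside the list, Ero1b, an oxidase that charges the disulfide isomerases, fell by 0.85 ± 0.072 (adjusted p = 3.08e-06) with no overlap. Under the alternatives, between 10 and 13 of the 15 genes were lower and none was higher.

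The promoters of this group are shown because 7 of its members share a sequence element. All 7 fell, but so did 13 of the 15 measured genes of the list. A link between the element and the fall was not tested. In the 250 bases before the RefSeq transcription start (GRCm38.p6), the ER stress response element (CCAAT, any 9 bases, then CCACG) was searched on both strands. It was found before 7 of the 14 listed and measured genes that have a promoter in the table (50%), against 35 of 27025 genes in all (0.13%). Of the 6073 genes measured in liver with a promoter, 11 held it (0.181%). The changes of those outside the list are not given here. Over all windows of this length, 37 of 32851 held it (0.113%). A match is a description of letters and not a test of binding. The capitals mark each match, written 5′ to 3′ in the direction of the gene, so a match on the other strand starts with CGTGG and ends with ATTGG.
Creld2, chr15:88819396-88819645, plus strand: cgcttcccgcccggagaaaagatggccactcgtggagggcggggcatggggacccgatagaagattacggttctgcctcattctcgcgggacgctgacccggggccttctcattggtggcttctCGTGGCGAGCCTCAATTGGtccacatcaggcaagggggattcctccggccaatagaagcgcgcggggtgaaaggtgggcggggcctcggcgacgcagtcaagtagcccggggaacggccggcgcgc
Hsp90b1, chr10:86705445-86705694, minus strand: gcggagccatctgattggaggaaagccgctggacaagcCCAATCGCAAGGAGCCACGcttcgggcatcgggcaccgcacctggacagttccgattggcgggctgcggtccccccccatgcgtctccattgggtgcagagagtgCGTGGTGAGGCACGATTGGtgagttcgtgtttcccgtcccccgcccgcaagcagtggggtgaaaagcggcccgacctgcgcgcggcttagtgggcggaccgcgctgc
Calr, chr8:84846932-84847181, minus strand: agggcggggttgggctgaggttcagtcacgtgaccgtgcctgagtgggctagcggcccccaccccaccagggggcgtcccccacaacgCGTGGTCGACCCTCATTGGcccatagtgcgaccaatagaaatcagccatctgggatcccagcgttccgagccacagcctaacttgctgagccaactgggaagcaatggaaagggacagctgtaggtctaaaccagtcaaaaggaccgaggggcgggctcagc
Hspa5, chr2:34771840-34772089, plus strand: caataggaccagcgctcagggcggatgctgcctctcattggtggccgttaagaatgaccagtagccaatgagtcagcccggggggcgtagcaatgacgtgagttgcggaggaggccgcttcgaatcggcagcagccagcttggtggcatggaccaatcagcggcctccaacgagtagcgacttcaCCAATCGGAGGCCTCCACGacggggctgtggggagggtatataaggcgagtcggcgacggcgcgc
Pdia6, chr12:17266339-17266588, plus strand: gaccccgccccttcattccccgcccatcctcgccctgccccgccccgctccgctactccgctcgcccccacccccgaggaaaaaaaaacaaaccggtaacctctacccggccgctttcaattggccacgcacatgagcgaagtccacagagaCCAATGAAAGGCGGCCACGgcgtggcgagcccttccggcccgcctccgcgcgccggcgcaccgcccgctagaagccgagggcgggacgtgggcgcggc
Dnajc3, chr14:118937682-118937931, plus strand: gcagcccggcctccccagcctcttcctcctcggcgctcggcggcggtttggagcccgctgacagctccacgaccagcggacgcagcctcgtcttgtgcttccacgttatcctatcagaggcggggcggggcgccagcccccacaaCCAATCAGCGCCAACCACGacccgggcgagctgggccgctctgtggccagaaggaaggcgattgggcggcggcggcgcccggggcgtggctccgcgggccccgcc
Syvn1, chr19:6046326-6046575, plus strand: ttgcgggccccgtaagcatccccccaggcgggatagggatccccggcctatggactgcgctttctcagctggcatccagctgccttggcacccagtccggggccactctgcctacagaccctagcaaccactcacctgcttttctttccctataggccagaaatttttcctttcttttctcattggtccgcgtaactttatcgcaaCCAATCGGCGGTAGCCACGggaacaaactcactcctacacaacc
Hsp90b1 carried the element 2 times, on opposite strands, and the other genes once. The nearest match ended 25 bases before the start in Syvn1, 46 in Hspa5, 79 in Pdia6, 86 in Dnajc3, 88 in Hsp90b1, 107 in Creld2 and 143 in Calr. Pdia4 and Pdia3, which also fell, held no exact match in this window.

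These genes took other values in livers of the 120-hour time point and of treated mice. At 120 hours Creld2 had 7.73–8.81 (median 8.29), Hsp90b1 11.17–11.46 (median 11.36) and Pdia4 9.29–9.58 (median 9.40), so of the 3 control groups the 0-hour mice were the highest for these 3 genes. The 120-hour minus 0-hour comparison, in which 43.2% of probes passed, shares the 0-hour mice with the main one, and 11 of the 15 genes were lower in it (21% of probes) and 2 higher (22.2% of probes) (Xbp1 by 0.65 and Herpud1 by 0.48). In treated mice, which share no array with the controls, 2.96% of probes passed between 8 and 0 hours (1.69% higher and 1.27% lower), and 2 genes of the list, Creld2 (gain of 1.64) and Hyou1 (gain of 0.40), were higher and none lower. The 8-hour minus 0-hour difference itself differed between treated and control mice for 10 of the 15 genes, each time more positive in treated mice, while 3.27% of probes passed that test (2.14% upward and 1.13% downward). The control change itself enters this difference with its sign turned. For Creld2 the 2 differences were -2.33 in control and 1.64 in treated mice, apart by 3.97 (adjusted p = 1.54e-08). For Hsp90b1 they were -1.51 and 0.42 (adjusted p of the difference = 9.71e-09).

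**Figure D2:**
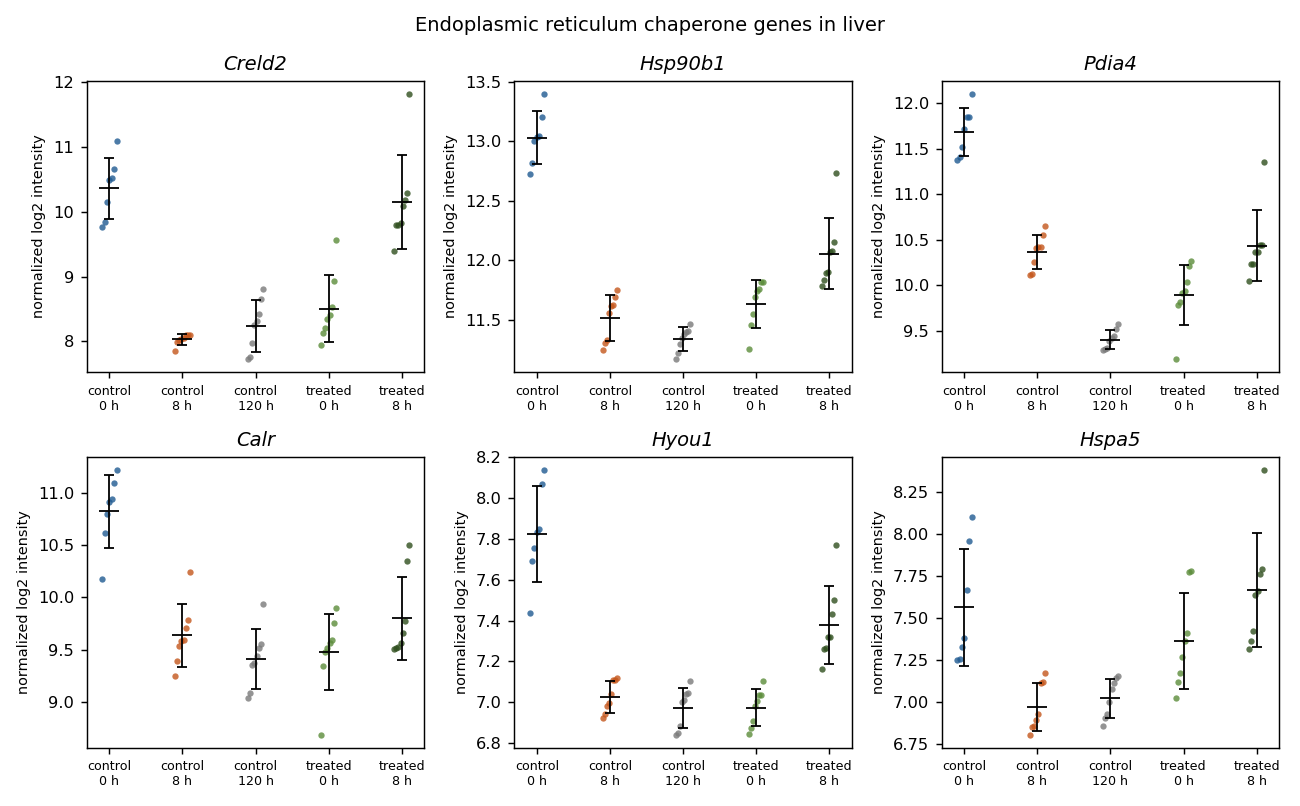
Normalized log2 intensity (y axis) of 6 ER chaperone genes for each mouse in the control groups at 0, 8 and 120 hours and the treated groups at 0 and 8 hours, with means and SD. Creld2 was 9.77 to 11.09 in 0-hour and 7.86 to 8.10 in 8-hour control mice, and it was 9.40 to 11.81 in treated mice at 8 hours.

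Some genes of the proteasome, the complex that degrades ubiquitin-tagged proteins, were lower at 8 hours. Of 33 measured subunit genes 14 were lower, none was higher and 19 did not pass, with falls between 0.171 and 0.533, and the median difference over the list was -0.11. Thus 42.4% were lower, against 7.2% of all genes. The groups did not overlap for 9 of the 33, against 221 of all 7372 genes. The genes that fell included 10 of the 18 named Psmc or Psmd, which build and serve the regulatory cap, and 4 of the 15 named Psma or Psmb, which build the core barrel. Psma5, a core subunit, went from 11.68–12.16 (median 11.93) to 11.32–11.47 (median 11.38), and it fell by 0.53 ± 0.053 (adjusted p = 2.21e-05). Psmd4, the ubiquitin receptor of the cap, fell by 0.43 ± 0.05 (adjusted p = 8.02e-05), Psmc1, a cap ATPase, by 0.38 ± 0.042, and Psmd12, a scaffold of the cap, by 0.32 ± 0.032 (adjusted p = 2.21e-05). The groups did not overlap for any of these 4 genes, and the 8-hour mice were the low ones. Only 1 of 2 Psmd12 probes passed, and the other differed by -0.099. Between 10 and 15 of the genes were lower under the alternatives. In treated mice none of the 33 passed in either direction by limma, and 5 had an unadjusted p of 0.05 or lower. For 8 of the 33 the time difference was more positive in treated than in control mice (2.14% of all probes). The control fall itself enters this difference with its sign turned.

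Stress programs other than the ER response were lower in part. Of 11 measured targets and partners of NRF2, the regulator of antioxidant defense, 4 were lower and 1 was higher. These are 36.4% and 9.09%, against 7.2% and 5.86% of all genes. Beside Srxn1, the fallers were Gclm and Gclc, the subunits of the enzyme that limits glutathione synthesis, with 0.32 ± 0.08 and 0.24 ± 0.069, and Nqo1, a quinone reductase, with 0.29 ± 0.075. Nfe2l2, the gene of NRF2 itself, gained 0.21 ± 0.06 (adjusted p = 0.0295). Gclc no longer passed when any 1 of 7 arrays was left out (adjusted p up to 0.0644) and Nfe2l2 when any 1 of 5 was (up to 0.0585). The antioxidant element TGACNNNGC stood within 250 bases of the start in 3 of the 9 genes of this list with a promoter, Nfe2l2, Gclm and Txnrd1. It stood there in 13.8% of the 6073 measured genes with a promoter and in 11.5% of all genes. With all 6 groups in 1 fit only Srxn1 stayed lower. With background correction Gclc differed by -0.51 and Nfe2l2 by 0.33, and Gclc by -0.15 in the processed values. Of 6 measured genes of the integrated stress response, the ATF4-driven program of amino acid shortage and ER stress, 3 were lower (7.2% of all genes). Asns, asparagine synthetase, went from 9.24–9.97 (median 9.42) to 8.72–9.14 (median 8.91), and it fell by 0.56 ± 0.10 (adjusted p = 0.0025). Nupr1 fell by 0.34 ± 0.049 and Ddit3 (CHOP) by 0.29 ± 0.043, both from dim probes, and the groups did not overlap for any of the 3. With background correction Nupr1 differed by -0.83 and Ddit3 by -0.74, and in the processed values by -0.20 and -0.16. None of these 3 passed with all 6 groups in 1 fit, where the adjusted p was 0.314 for Asns, 0.476 for Nupr1 and 0.825 for Ddit3.

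Of 15 measured heat shock and cold-inducible genes, 3 were higher (20%, against 5.86% of all genes), none was lower and 12 did not pass. Fkbp4 (FKBP52), an HSP90 partner in steroid receptor complexes, gained 0.45 ± 0.087 (adjusted p = 0.00359) from 10.55–11.15 (median 11.01) to 11.12–11.57 (median 11.39). Stip1 (HOP), which joins HSP70 to HSP90, gained 0.36 ± 0.079, and Hspd1, the mitochondrial chaperonin, gained 0.21 ± 0.063 (adjusted p = 0.0386), the last no longer passing when any 1 of 9 arrays was left out. Only 1 of 2 Hspd1 probes passed, and the other differed by 0.12. In treated mice 7 of the 15 were higher (1.69% of all probes). Of the 15, 4 differed between treated and control mice in the size of the change (3.27% of all probes).

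Clock genes moved in both directions. Of 23 listed clock genes 15 were measured, and 8 of these passed, 6 lower and 2 higher. Over all genes 7.2% were lower and 5.86% higher. Among the repressors, Nr1d1 (REV-ERB alpha), which silences Bmal1, went from 7.11–7.51 (median 7.42) to 6.77–6.90 (median 6.80), and it fell by 0.53 ± 0.054 (adjusted p = 2.21e-05), and all 8-hour mice were below all 0-hour mice. Its probe was dim, and the difference was -1.31 with background correction and -0.31 in the processed values. Nr1d2 fell by 0.39 ± 0.12 (adjusted p = 0.0487), which no longer passed when any 1 of 11 arrays was left out. Per1 fell by 0.58 ± 0.16 from 7.74–8.57 (median 8.23) to 7.16–8.16 (median 7.57), with overlap. Its adjusted p was 0.0252, and 0.051 without mouse 50 of the 0-hour group. Ciart (Chrono), a repressor of the CLOCK complex, fell by 0.60 ± 0.14 (adjusted p = 0.0102) from 6.96–8.00 (median 7.66) to 6.72–7.29 (median 7.07), and the difference was -1.19 with background correction and -0.39 in the processed values. With background correction Per1 differed by -0.91 and Nr1d2 by -0.60, the latter no longer passing (adjusted p = 0.0585). Without mouse 50, 2 of the 7 measured repressors were lower and none higher, against 4 and 1 with it. Bhlhe40 (DEC1), a repressor at the same sites, gained 0.42 ± 0.13 (adjusted p = 0.0396), and this did not hold when any 1 of 8 arrays was left out.

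Of the 3 measured output factors 1 was lower and 1 higher. Dbp, an activator at D-boxes and a direct CLOCK target, went from 9.16–11.31 (median 10.78) to 8.12–9.42 (median 9.08), and it fell by 1.56 ± 0.27 (adjusted p = 0.00161), and 1 mouse of the 0-hour group lay within the 8-hour range. Nfil3 (E4BP4), which competes with Dbp as a repressor, gained 0.70 ± 0.12 (adjusted p = 0.00145) from 8.21–9.05 (median 8.35) to 8.96–9.60 (median 9.21). Csnk1d, the kinase that marks PER proteins for decay, fell by 0.24 ± 0.039 (adjusted p = 0.000934) without overlap, and differed by -0.36 with background correction. Of its 5 probes 2 passed, and the differences ran from -0.24 to -0.036. It did not pass with all 6 liver groups in 1 fit (adjusted p = 0.132 by limma). The other 7 did not pass. Clock differed by 0.16 and Rora, an activator of Bmal1, by 0.12. Per2 differed by 0.39 (adjusted p = 0.107) and passed at 0.0247 without mouse 58 of the 0-hour group, and Usp2, a deubiquitinase under clock control, by -0.32 (adjusted p = 0.322), passing at 0.0392 without mouse 26. Tef differed by -0.16, Cry2 by -0.0046 and Csnk1e by -0.00084. The Bmal1 probe (Arntl) did not reach the detection filter, with 36 of 47 liver arrays detected. It was detected on all 7 control arrays at 0 hours, all 8 at 8 hours and 4 of 8 at 120 hours. Its signal was 6.75 to 7.54 (median 7.09) at 0 hours and 7.33 to 7.84 (median 7.44) at 8 hours, a gain of 0.41 ± 0.11 (adjusted p = 0.0443 without the filter).

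**Figure D3:**
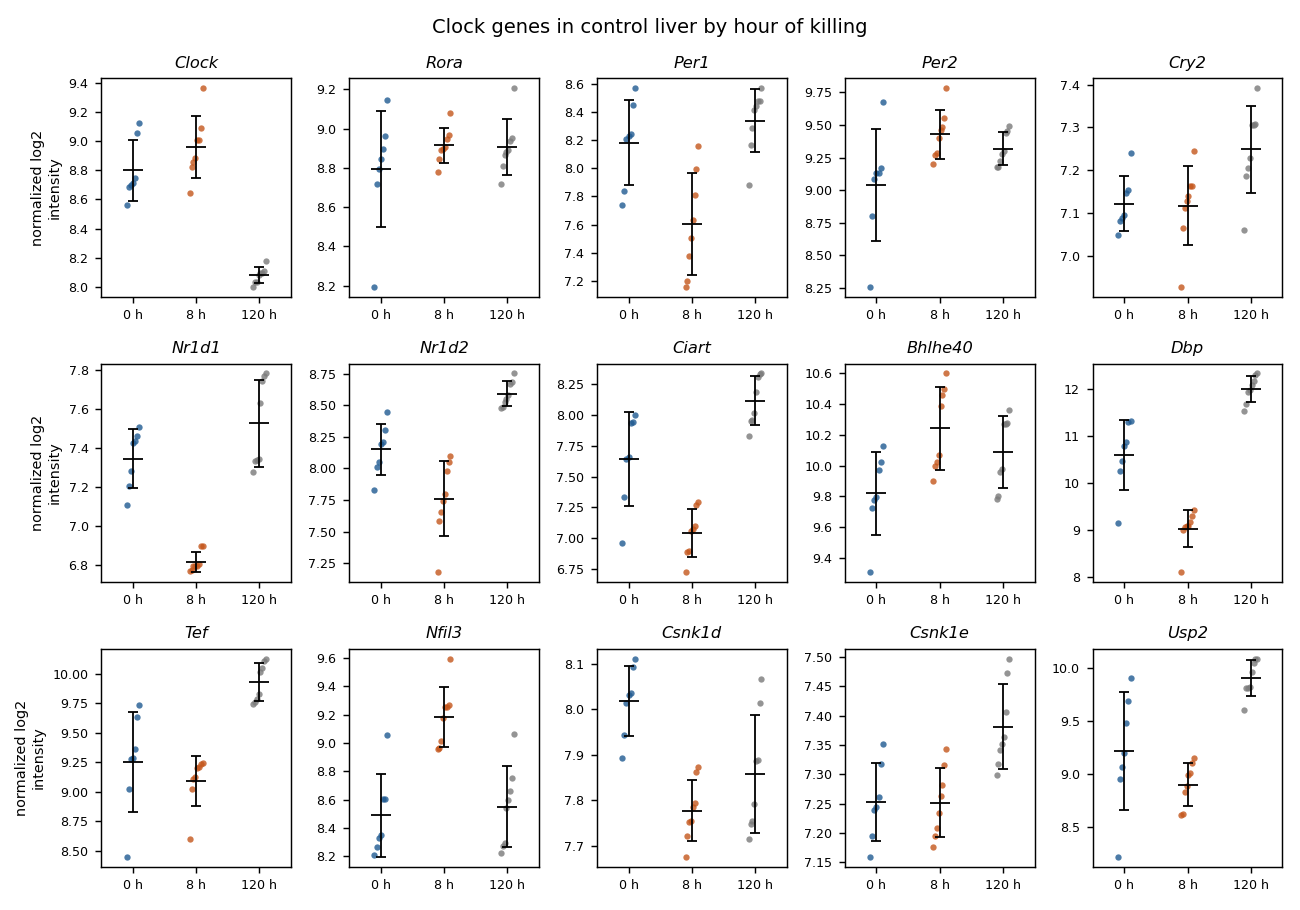
Normalized log2 intensity (y axis, a separate scale in each panel) of 15 clock genes in each control liver at 0, 8 and 120 hours, with means and SD. Nr1d1 was 7.11 to 7.51 at 0 hours and 6.77 to 6.90 at 8 hours, and Dbp fell by 1.56 between these time points.

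Counted from the last session, 120 hours is a whole number of days, but the clock times of killing are not given. Of the 6 clock genes that were lower at 8 hours, 3 were higher and 1 was lower at 120 than at 0 hours. In that comparison 22.2% of all probes were higher and 21% lower. Dbp was 11.53–12.32 (median 12.03), Nr1d1 7.28–7.78 (median 7.49) and Ciart 7.83–8.34 (median 8.10) at 120 hours. Of the 15 clock genes, 9 were lower and 2 higher at 8 than at 120 hours, a comparison in which 48.8% of probes passed (25.3% lower and 23.5% higher) and which shares the 8-hour mice with the main one. In treated mice 5 of the 15 were lower and 1 higher at 8 than at 0 hours, against 1.27% and 1.69% of all probes. Dbp differed by -2.67 there, Ciart by -0.99, Nr1d1 by -0.70, Nr1d2 by -0.58, Tef by -0.60 and Nfil3 by 1.29. Only Bhlhe40 passed the test of the difference between treated and control mice, with -0.57 against 0.42 (adjusted p = 0.0342). The Ciart promoter is shown because it holds the E-box CACGTG, the site of CLOCK and BMAL1, 3 times (capitals). In the 250 bases before a start, 10.4% of the 6073 measured genes with a promoter hold it, and 6.86% of all genes. Of the 12 measured clock genes with a promoter, 3 (Per1, Ciart and Tef) hold it. The D-box TTATGTAA was in none of these 12, in 0.692% of the measured genes with a promoter and in 0.977% of all genes.
Ciart, chr3:95882229-95882478, minus strand: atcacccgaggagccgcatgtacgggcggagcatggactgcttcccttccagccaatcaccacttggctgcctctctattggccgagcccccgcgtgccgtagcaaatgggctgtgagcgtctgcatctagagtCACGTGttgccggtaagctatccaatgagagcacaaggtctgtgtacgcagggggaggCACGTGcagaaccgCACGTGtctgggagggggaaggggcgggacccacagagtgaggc

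The same genes were also read in 3 brain regions of control mice. The columns of these regions carry the mouse numbers of the liver columns, with a further mouse at 0 hours. They are therefore not an independent set of mice. In amygdala 2 of the 15 clock genes were lower and 2 higher at 8 than at 0 hours (9.56% of all probes passed, 4.43% lower and 5.13% higher), in nucleus accumbens 5 and 1 (9.74%, 4.77% lower and 4.97% higher), and in prefrontal cortex 4 and 1 (3.39%, 1.5% lower and 1.89% higher). Nr1d1 was lower in each region, by 0.14 ± 0.036, 0.16 ± 0.043 and 0.18 ± 0.038. Ciart fell by 0.45 ± 0.071 in accumbens and by 0.52 ± 0.061 in prefrontal cortex, and Dbp by 0.22 ± 0.058 and 0.25 ± 0.066 there, against 1.56 in liver. Nr1d2 rose in accumbens by 0.15 ± 0.039, while it fell in liver. The tables of the tissues were normalized separately, so the difference between tissues was not tested.

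**Figure D4:**
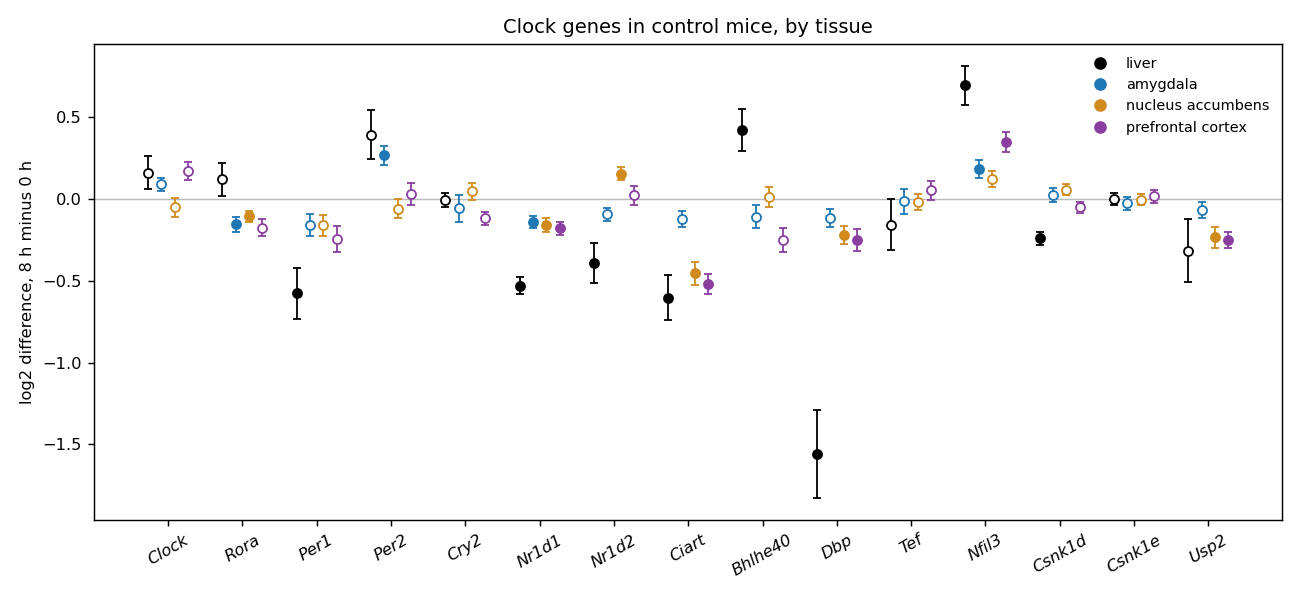
Log2 difference between 8 and 0 hours (y axis) of 15 clock genes in control mice, by tissue, with SE. Filled points passed at an adjusted p of 0.05 within their tissue. Dbp fell by 1.56 in liver, by 0.22 in accumbens and by 0.25 in prefrontal cortex.

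Genes of fuel use showed a few changes among many members that did not pass. Of 11 measured genes of glucose use and glycogen, 4 were higher and 1 was lower. These are 36.4% and 9.09%, against 5.86% and 7.2% of all genes. Ppp1r3b, the liver subunit that brings phosphatase 1 to glycogen and favors glycogen synthesis, went from 7.68–9.07 (median 9.02) to 9.27–9.70 (median 9.42), a gain of 0.63 ± 0.17 (adjusted p = 0.0215). The lowest 0-hour value was that of mouse 50, and without this mouse the gain was 0.45 (adjusted p = 0.000733). Ppp1r3c, a related subunit, gained 0.75 ± 0.22, Mlxipl (ChREBP), the glucose-responsive factor, gained 0.54 ± 0.14 (adjusted p = 0.0216), and Pfkl, the liver phosphofructokinase, gained 0.18 ± 0.053. Ugp2, which makes the UDP-glucose for glycogen, fell by 0.43 ± 0.071 (adjusted p = 0.00105). Ppp1r3c and Pfkl each failed to pass when any 1 of 8 arrays was left out, with adjusted p up to 0.0691 and 0.0631. Pck1, the enzyme that commits carbon to glucose production, fell by 0.53 ± 0.15 (adjusted p = 0.0336), the only one of 9 genes of that pathway to pass, and it failed when any 1 of 6 arrays was left out. Its difference was -1.10 with background correction and -0.31 in the processed values, where it did not pass (adjusted p = 0.0715). With all 6 liver groups in 1 fit, Ppp1r3b was the only gene of both lists to pass by limma (adjusted p = 0.0413).

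Among lipid genes, 13 of 14 measured genes of fatty acid synthesis had a positive difference, with a median of 0.30. By limma 10 of the 14 had an unadjusted p of 0.05 or lower, in either direction. After adjustment only 2 rose (14.3%, against 5.86% of all genes), Fads1, a desaturase (0.26), and Dgat2, an enzyme of triglyceride synthesis (0.23). Neither passed when any 1 of 10 arrays (Fads1) or 11 arrays (Dgat2) was left out. Lpin1, a phosphatidate phosphatase that is induced by fasting, fell by 0.79 ± 0.18 (adjusted p = 0.0105). A further 3 lipid and metabolic genes, chosen after their values were seen, had large gains with overlapping groups. Angptl8, an insulin-induced inhibitor of lipoprotein lipase, gained 1.14 ± 0.35 (adjusted p = 0.0427), G0s2, an inhibitor of the lipase ATGL, gained 1.10 ± 0.20 (adjusted p = 0.00191) and Car3, a carbonic anhydrase abundant in liver and fat, gained 1.08 ± 0.25 (adjusted p = 0.00967). Angptl8 failed when any 1 of 10 arrays was left out. Sc5d was the only one of 20 genes of cholesterol synthesis and uptake to pass, and none of 18 genes of fatty acid oxidation under PPAR alpha did by limma (2 had an unadjusted p of 0.05 or lower), with list medians of 0.012 and 0.017.

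Of 19 measured bile acid genes 3 were lower and 1 was higher. These are 15.8% and 5.26%, against 7.2% and 5.86% of all genes. Beside Cyp8b1, Abcb4, which exports phospholipid into bile, fell by 0.59 ± 0.10 (adjusted p = 0.00109) from 10.84–11.78 (median 11.25) to 10.50–10.79 (median 10.70) without overlap. Abcg8, a subunit of the sterol exporter, fell by 0.71 ± 0.20 (adjusted p = 0.0295), and Nr1h4 (FXR), the bile acid receptor, gained 0.27 ± 0.081 (adjusted p = 0.0385). These last 2 failed when any 1 of 5 and 9 arrays was left out. Cyp7a1, the rate-limiting enzyme of bile acid synthesis, differed by 0.27 ± 0.24 (adjusted p = 0.53), with 9.28–11.05 (median 10.26) at 0 hours and 9.77–11.14 (median 10.53) at 8 hours. At 120 hours Cyp8b1 was 12.44–13.32 (median 12.69), above both other groups.

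Hamp, which encodes hepcidin, the hormone that lowers iron export into blood, had the largest difference of all named genes, and it fell by 2.41 ± 0.54 (adjusted p = 0.00918). Its signal was 10.997–13.22 (median 12.69) at 0 hours and 8.55–13.10 (median 9.81) at 8 hours, so 7 of the 8-hour mice lay below every 0-hour mouse and 1 lay among the highest. It was the only one of 19 acute phase genes to pass (5.26% lower, against 7.2% of all genes). Of the 19, 14 had a positive difference, as had 3714 of all 7372 genes. Of 11 genes of the growth hormone and IGF1 axis, 2 were higher (18.2%, against 5.86% of all genes), none was lower and 9 did not pass. None passed with all 6 liver groups in 1 fit. Igfals, the subunit that keeps IGF1 in the circulation, gained 0.55 ± 0.085 (adjusted p = 0.000697). Ghr, the growth hormone receptor, gained 0.36 ± 0.077 (adjusted p = 0.00685), while Igf1 differed by 0.12 (adjusted p = 0.224). Only 1 of 2 Ghr probes passed, and the other differed by 0.076. Of 10 genes that glucocorticoids induce, 1 was higher (10%), 3 were lower (30%) and 6 did not pass. Over all genes 5.86% were higher and 7.2% lower. None of the 10 passed with all 6 liver groups in 1 fit. Dusp1, a MAP kinase phosphatase, gained 0.54 ± 0.084 (adjusted p = 0.000732). Mt1, a metal-binding protein, fell by 0.93 ± 0.28, Mfsd2a, a lipid transporter, by 0.80 ± 0.24 and Klf9, a zinc finger factor, by 0.43 ± 0.13. The 3 falls passed at 0.0376, 0.0428 and 0.0383, and failed when any 1 of 8 or 9 arrays was left out.

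Some genes of DNA replication moved, in both directions, and these were chosen after their values were seen, apart from Mcm5. Mcm5 came from the cell cycle list, where it was the only 1 of 3 measured genes to pass (33.3% higher, against 5.86% of all genes). Pcna, the replication clamp, is on the same list, and it differed by 0.014 and did not pass. Mcm4, Mcm5 and Mcm6, subunits of the helicase that is loaded at replication origins, gained 0.91 ± 0.14, 0.65 ± 0.13 and 0.64 ± 0.13, with adjusted p of 0.000748, 0.00536 and 0.00488. Mcm4 went from 7.74–8.77 (median 8.05) to 8.72–9.53 (median 8.95), and mouse 68 of the 8-hour group was the highest in all 3 genes. Without this mouse the gains were 0.84, 0.56 and 0.54 and still passed. Mcm5 and Mcm6 were dim, with differences of 1.22 and 1.25 after background correction and 0.36 and 0.34 in the processed values. Mcm10, which acts when the helicase is activated and is no member of that ring, fell by 0.61 ± 0.13 (adjusted p = 0.00528).

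**Figure D5:**
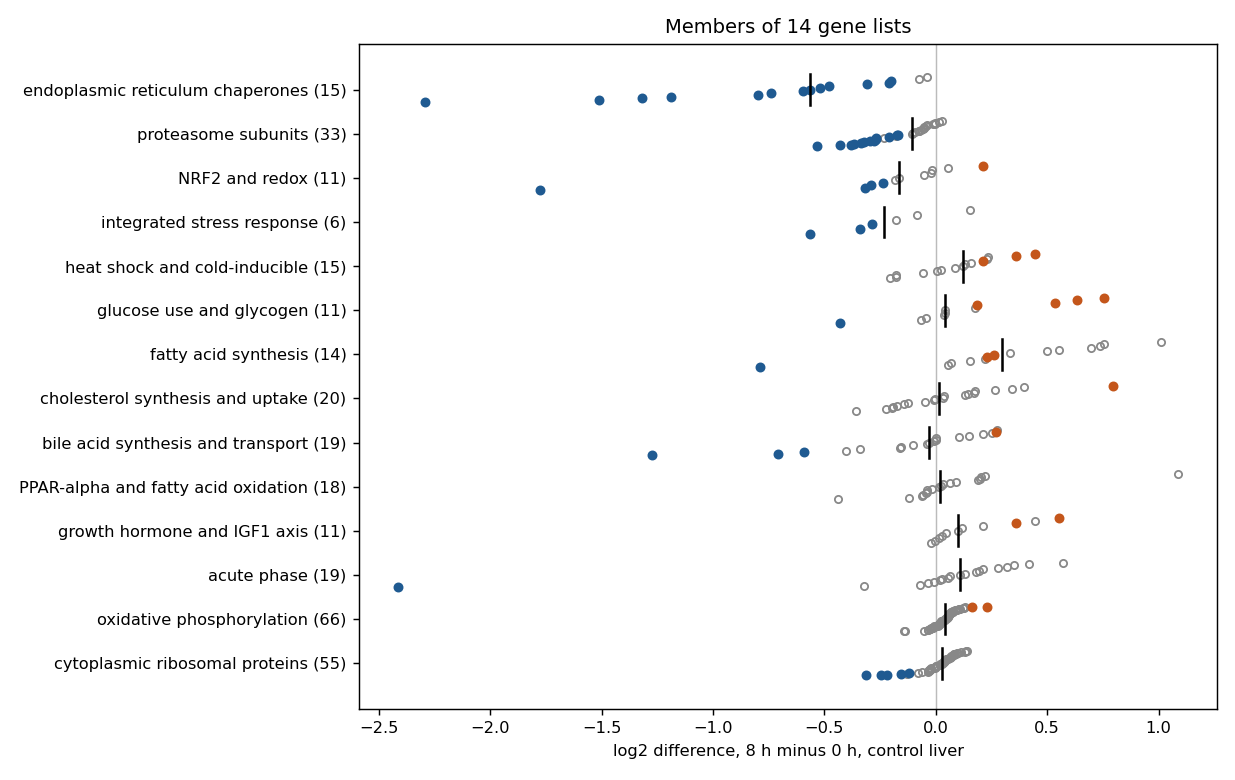
Log2 difference between 8 and 0 hours in control liver (x axis) for each measured gene of 14 lists (number measured in parentheses). Blue and orange points passed as lower and higher, open points did not pass, and the vertical mark is the list median, which was -0.56 for ER chaperones and -0.11 for proteasome subunits.

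The large housekeeping groups changed little. Of 66 genes of oxidative phosphorylation 2 were higher (3.03%) and none lower, with a median of 0.042. Of 55 cytoplasmic ribosomal proteins 5 were lower (9.09%) and none higher, with a median of 0.029. Over all genes 5.86% were higher and 7.2% lower. Of 9 hepatocyte markers 1 passed, Alb (albumin), higher by 0.40 on a dim probe, at 6.80 to 7.19 at 0 hours and 7.18 to 7.50 at 8 hours. The summed intensity of the hepatocyte markers was 126119 to 142861 at 0 hours and 130862 to 144794 at 8 hours. None of 9 Kupffer cell, 10 sinusoidal endothelium, 6 stellate cell and 3 red cell markers passed in either direction by limma, and 1 of them, of endothelium, had an unadjusted p of 0.05 or lower. The summed intensity of the Kupffer markers was 2536 to 5279 at 0 hours and 2885 to 5032 at 8 hours, and that of the red cell markers was 2426 to 6518 and 1338 to 4970. Sox9, the only cholangiocyte marker measured, was higher by 0.13. Of the pericentral hepatocyte markers 1 of 8 (Axin2, by -0.13) and of the periportal ones 1 of 6 (Pck1) were lower. No lymphocyte or adipocyte marker was measured.

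Over all probes, the change of control livers was set beside that of treated livers. Of the 1277 probes that passed in control mice, 64.7% had the same sign in treated mice, against 56.4% of all 10530 probes, and 82 passed there with the same sign (6.42%) and 12 with the opposite sign. Over all 10530 probes, 222 passed in treated mice with the sign of the control difference (2.11%) and 90 with the opposite sign.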

How the data were processed

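Liver total RNA was hybridized to MouseRef-8 v2 BeadChips (Illumina), 1 array per mouse. The deposited files hold not-normalized probe intensities with a detection p-value for each array, and the authors' processed log2 values. Per the labels and methods, the authors filtered on detection, applied variance stabilization and quantile normalization with lumi (version not given in the sources used here) and removed outliers.

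Here, probes were kept if over 80% of the 47 liver arrays gave a detection p of at most 0.05 (10530 of 25697), and their log2 intensities were quantile normalized without background correction, which compresses changes of dim probes. Linear models (lmFit and eBayes of limma 3.58.1, R 4.3.3) compared the groups, with Benjamini-Hochberg adjustment over all 10530 probes. Genes of fixed lists were taken at their brightest probe. Named genes were the 10 largest rises and falls among probes that passed without overlap, at the probe of smallest p, and members of the lists. Angptl8, G0s2, Car3, Mcm4, Mcm6 and Mcm10 were added after their values were seen. Genes and lists were chosen with earlier results of these data known. Probe symbols came from the platform annotation, updated through RefSeq (GRCm38.p6). Promoters are RefSeq sequences of that build. Scripts were tested on simulated data. Alternatives were the scaling, the filter, background correction, array weights, the processed values, the samples in the fit and each mouse left out. No column was left out (0). The labels do not say whether mice of a group were housed or processed apart. The p-values measure the spread between these mice, in which differences between chips or processing sets may be mixed.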

Additional observations from a re-analysis of the deposited data

Results flagged for a closer look

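In 12 of 170 gene and group combinations 1 mouse lay far from the rest of its group on the log2 scale, where chance alone gives about 1 in 20. Ppp1r3b was 7.68 in mouse 50 of the 0-hour group (low, next value 8.74). Dusp1 was 9.95 in mouse 60 of the 8-hour group (high, next value 9.63). Creld2 was 7.86 in mouse 36 of the 8-hour group (low, next value 7.99). Srxn1 was 7.79 in mouse 68 of the 8-hour group (low, next value 8.04). Cyp8b1 was 12.64 in mouse 50 of the 0-hour group (high, next value 12.00). Dbp was 8.12 in mouse 44 of the 8-hour group (low, next value 9.0). Psmc1 was 10.14 in mouse 66 of the 0-hour group (high, next value 10.02). Tef was 8.60 in mouse 44 of the 8-hour group (low, next value 9.02). Mcm4 was 9.53 in mouse 68 of the 8-hour group (high, next value 9.10). Gclc was 7.70 in mouse 50 of the 0-hour group (high, next value 7.31). Mcm5 was 8.42 in mouse 68 of the 8-hour group (high, next value 7.89). Mcm6 was 8.42 in mouse 68 of the 8-hour group (high, next value 7.82).

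The difference between 8 and 0 hours itself differed between treated and control livers for 23 of the 85 named genes (limma, adjusted p of 0.05 or lower). Many of these genes were named for their control change, which enters this difference, so nothing is read from that count. Values are treated minus control, log2. Genes of ER protein folding and clearance differed upward, Creld2 by 3.97, Hsp90b1 by 1.94, Pdia4 by 1.86, Ero1b by 1.49, Hyou1 by 1.20, Pdia3 by 1.04, Herpud1 by 0.94, Dnajc3 by 0.55, Sel1l by 0.78, Calr by 1.51 and Hspa5 by 0.90. Proteasome genes did so as well, Psma5 by 0.60, Psmd4 by 0.53 and Psmc1 by 0.34. The other upward differences were Cbr3 by 2.07, Hamp by 2.57, Gclm by 0.61, Stip1 by 0.72 and Gclc by 0.86. The downward ones were Nrep by -1.30, Bhlhe40 by -0.99, Mcm4 by -0.78 and Mcm6 by -0.72.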

How the results depend on the processing

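The comparison of 8 with 0 hours in control livers gave 1013 to 1236 probes when 1 mouse was left out, against 1277. Other settings gave 1299 (median scaling), 1352 (processed values), 1025 (no detection filter), 1367 (array weights), 1274 (normalized over the 15 arrays), 1147 (background correction) and 1247 (strict filter). With all 6 liver groups in 1 fit, 575 passed, 272 higher and 303 lower. Treated mice had 134 lower probes, and 89 with median scaling or 87 without the filter. The test of the difference between treated and control changes gave 344 probes, 205 without the filter (138 higher, 67 lower) and 606 with array weights (344 higher, 262 lower). The causes were not tested. Cry2, which did not pass, reversed to 0.015 with array weights and ran from -0.023 to 0.023 with 1 mouse left out, and Csnk1e from -0.016 to 0.016. Of the 74 named genes that passed, 56 passed with any 1 mouse left out, 35 were lost with all 6 groups in 1 fit and 18 without the filter. In each of the 25 settings that tested them, 31 passed. Nr1d1, 1 of these 31, was tested in only 24 settings. The number of arrays and the dim signal of some probes limit the precision.

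Replicate numbers exist only for the processed values. With the replicate block, 844 probes passed by title number (369 higher, 475 lower) and 831 by description number (357 higher, 474 lower), an alternative chosen after seeing the data. Same-numbered mice correlated in their deviations at -0.10 to 0.38 by title, with 4 of 7 pairs over 0.1, and at -0.17 to 0.17 by description, with 1 of 7, so the numbers were not taken as pairing. Of the 74 named genes that passed, 29 did not pass under at least 1 of these blocks.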
